A study of Arabidopsis thaliana with 12 samples.

Results

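On an array of 3439 probes, 692 probes carried exactly 1 gene in the platform annotation, and 141 of these were rarely above 0. They were selected on the deposited values themselves, which had to be above 0 on fewer than 4 of the 6 wild-type arrays or on fewer than 4 of the 6 toc34 arrays. All 141 genes were distinct, and all matched a protein-coding locus in RefSeq. The other 551 single-gene probes were above 0 on at least 4 arrays of each genotype. The arrays held total RNA of Arabidopsis thaliana, 6 from the wild type (WT) and 6 from the toc34 mutant, both in ecotype Columbia 0 per the labels. The toc34 plants are described there as impaired in protein import through the outer envelope of the chloroplast. The labels used here give no age, tissue, growth condition or treatment, and nothing in them tells if the replicates of a genotype were separate plants or repeated measurements of the same RNA. A p-value below therefore describes variation among the arrays, possibly of technical origin only. No probe was annotated to TOC34 alone, so the mutated gene itself is not analysed here.

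Most proteins of the chloroplast are encoded in the nucleus, made in the cytosol and carried across the envelope by import machinery, in which TOC34 is a GTP-binding receptor at the outer membrane. Many plant genes are transcribed only in certain cells, at a stage of development or under stress, and arrays measure such rare transcripts poorly. A deposited value of 0 can stand for a transcript that was absent, one too rare to measure or a failed estimate, and the value alone cannot tell these apart. In RNA from whole samples, fewer cells of a type and less RNA per cell cannot be told apart either. The deposited values are intensities on a linear scale, and a value of 0 has no logarithm, so no fold change is given against 0.

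A deposited 0 was not taken here to mean that a gene was silent. SBPASE, the sedoheptulose-bisphosphatase of the Calvin cycle, is an enzyme that green tissue needs for carbon fixation. It was listed at 0 on all 6 WT arrays and on 5 toc34 arrays, with a value of 0.00960 on toc34 replicate 6. The labels used here name no tissue, so the level to look for is not known. For 6 of the 141 genes a second probe existed that also carried other genes, and 5 of those 6 shared probes were above 0 on all 12 arrays. Of all 3439 probes 2337 were, and the signal of a shared probe may come from its other genes. The genes are described below as listed at 0 or above 0, not as silent or expressed.

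The detection counts chose the genes, so they are given as a description with no test. Of all 3439 probes, 19.5% were above 0 on fewer than 4 arrays of at least 1 genotype, against 20.4% of the single-gene probes. Among the 141 genes, 18 were at 0 on all 12 arrays (2.6% of the 692 single-gene probes, against 3.02% of all probes). A further 82 were above 0 on at least 1 array but on fewer than 4 in both genotypes (11.8% against 11.3%). In 25 genes at least 4 WT arrays and fewer than 4 toc34 arrays were above 0 (3.61% against 3%). In 16 genes at least 4 toc34 arrays and fewer than 4 WT arrays were (2.31% against 2.21%). At the edge of the rule, 20 single-gene probes had exactly 3 arrays above 0 in the genotype with fewer, and 23 had exactly 4. Values above 0 had a median of 0.0437 in the first set and 0.0576 in the second, so both sets lay near the dim end of the arrays.

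**Figure D1:**
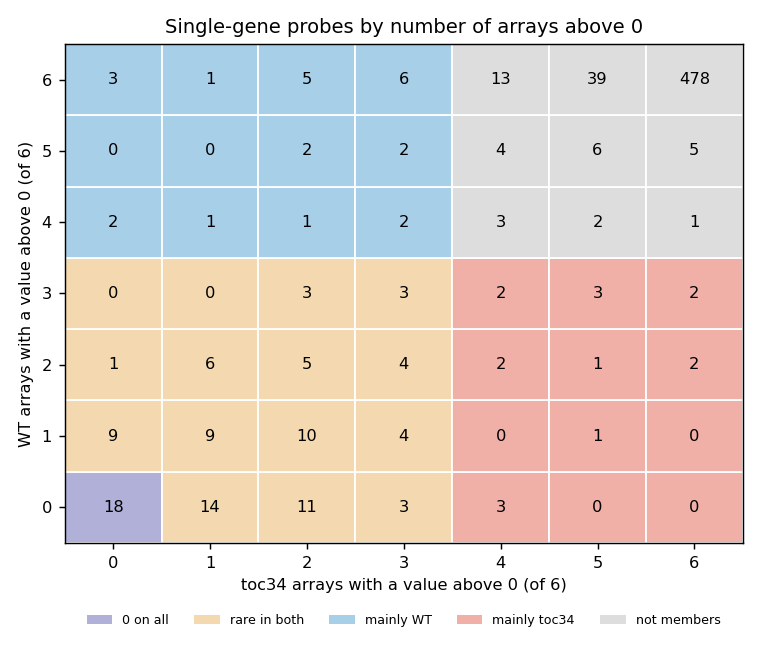
Number of single-gene probes for each combination of WT arrays (vertical axis) and toc34 arrays (horizontal axis) with a value above 0, each out of 6. The 141 rarely detected genes fill the coloured fields, 18 of them at 0 on all 12 arrays, and 478 probes were above 0 on every array.

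The split by array showed no group of arrays on which these genes were lost as a whole. The 141 genes gave 43, 47, 42, 33, 39 and 44 values above 0 on WT replicates 1 to 6. On toc34 replicates 1 to 6 they gave 46, 46, 36, 42, 39 and 45. The ranges overlapped, with WT replicate 4 lowest of all and WT replicate 2 highest. As a background that the rule did not touch, the 2747 probes with several genes or none listed were above 0 at 2329 ± 48.9 probes per WT array and 2309 ± 57.5 per toc34 array (SD, n = 6 each). That difference of -19.3 probes was smaller than the spread (exact permutation test over 924 splits, two-sided p = 0.545). It was 10.5 when taken over replicates 1 and 2 alone, -28.5 over 3 and 4, and -40.0 over 5 and 6, so its sign was not the same throughout. The other 551 single-gene probes, which the rule itself set apart and which therefore get no test, were above 0 at 546.5 ± 5.01 probes per WT array and 536.5 ± 5.65 per toc34 array (SD, n = 6 each), lower in toc34 in 6 of 6 same-numbered pairs. Summed intensity ran from 2641 to 3553 in WT and from 1988 to 3105 in toc34. Neighbouring numbers had close sums, as 2771 and 2691, 3515 and 3553, and 2685 and 2641 in WT. In toc34 they were 2402 and 2344, 3102 and 3105, and 1988 and 1991. Replicates 3 and 4 of both genotypes had the highest sums and the fewest probes above 0 in their genotype, 2845 and 2849 in WT and 2784 and 2835 in toc34.

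**Figure D2:**
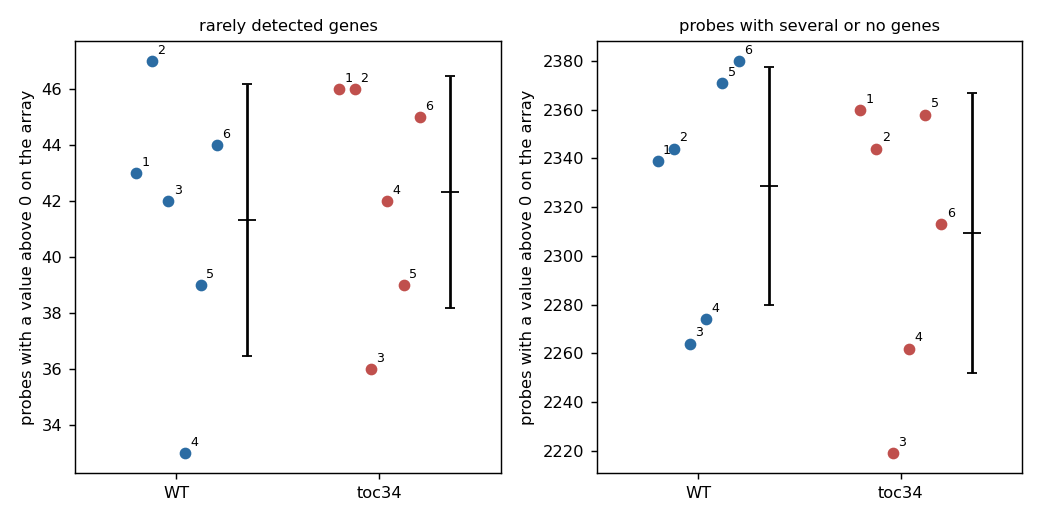
Number of probes with a value above 0 on each array (points, labelled with the replicate number), for the 141 rarely detected genes on the left and for 2747 probes with several genes or none listed on the right. Bars show the mean and SD of 6 arrays, and the vertical axes do not start at 0. The genotypes overlap in both panels, and replicates 3 and 4 lie lowest on the right.

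The genes were dim where they were measured. Of 1692 values, 502 were above 0, and 278 of these 502 (55.4%) lay under the 10th percentile of the values above 0 on their own array. Another way to see this is that 69 of the 141 genes never exceeded that percentile on any array, the 18 genes at 0 included. The percentile itself lay between 0.0420 and 0.0521 on WT arrays and between 0.0325 and 0.0446 on toc34 arrays. Only 18 genes ever exceeded the median of the values above 0 of an array.

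Among the genes seen mainly in WT, 3 were above 0 on all 6 WT arrays and at 0 on all 6 toc34 arrays. Of the single-gene probes 0.434% had this pattern, and of all probes 0.145%. The reverse was found for 0 of the 141 genes and for 0% of all probes. AT4G12270 had intensities of 0.259, 0.388, 0.576, 0.373, 0.251 and 0.345 on WT replicates 1 to 6. All 6 were well above the 10th percentile, and its 6 toc34 values were 0. AT3G50350 had 0.295, 0.173, 0.176, 0.0518, 0.291 and 0.238 in WT. Here replicate 4 was the low array. AT4G03150 had 0.0603, 0.0859, 0.0576, 0.0525, 0.0896 and 0.0952 in WT, all between the 10th and the 25th percentile of their array. No gene function is given for these 3 loci in the annotation used here.

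A wider set of 11 genes was above 0 on at least 4 more WT than toc34 arrays (1.59% of the single-gene probes, against 0.901% of all probes). AT4G38040 was the brightest of them in WT, at 0.495, 0.327, 0.681, 0.595, 0.545 and 0.496, and was above 0 on a single toc34 array, replicate 1, at 0.122. The genotypes did not overlap for this gene, and its only toc34 value lay below the lowest WT value. AT2G27680 had 0.413, 0.0553, 0.568 and 0.426 on WT replicates 1 to 4 and 0 on WT replicates 5 and 6 and on every toc34 array. AT4G31930 had 0.0373, 0.0628, 0.109 and 0.0784 on WT replicates 1, 2, 5 and 6 and 0 on WT replicates 3 and 4 and on every toc34 array. In both of these genes the zeros of WT fell on neighbouring replicate numbers.

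The toc34 zeros of several genes seen mainly in WT fell by replicate number. AT2G47360 had WT values of 0.124, 0.107, 0.107, 0.0606, 0.142 and 0.103, and toc34 values of 0.209 and 0.162 on replicates 1 and 2 with 0 on the other 4 arrays. Where it was above 0 in toc34, it was higher than on any WT array. AT1G55440 ran from 0.0485 to 0.113 in WT, with 0.0115 and 0.107 on toc34 replicates 1 and 2 and 0 on the others. AT4G17260 and AT1G54520 had the same toc34 pattern, with WT values of 0.0144 to 0.0567 and 0.000574 to 0.0852. AT3G60590 differed from these, with WT values of 0.00603 to 0.0521 and toc34 values of 0.0781 and 0.00416 on replicates 5 and 6. In all, 6 of the 25 genes seen mainly in WT had toc34 values above 0 on replicates 1 and 2 and on no other toc34 array. The share of all probes with that pattern was not counted, so the 6 have no background to be read against. The 25 genes gave 13, 15, 3, 4, 8 and 5 values above 0 on toc34 replicates 1 to 6, so that replicates 3 and 4 held the fewest. The 78 probes of the same kind outside the single-gene set gave 39, 38, 21, 15, 39 and 33.

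**Figure D3:**
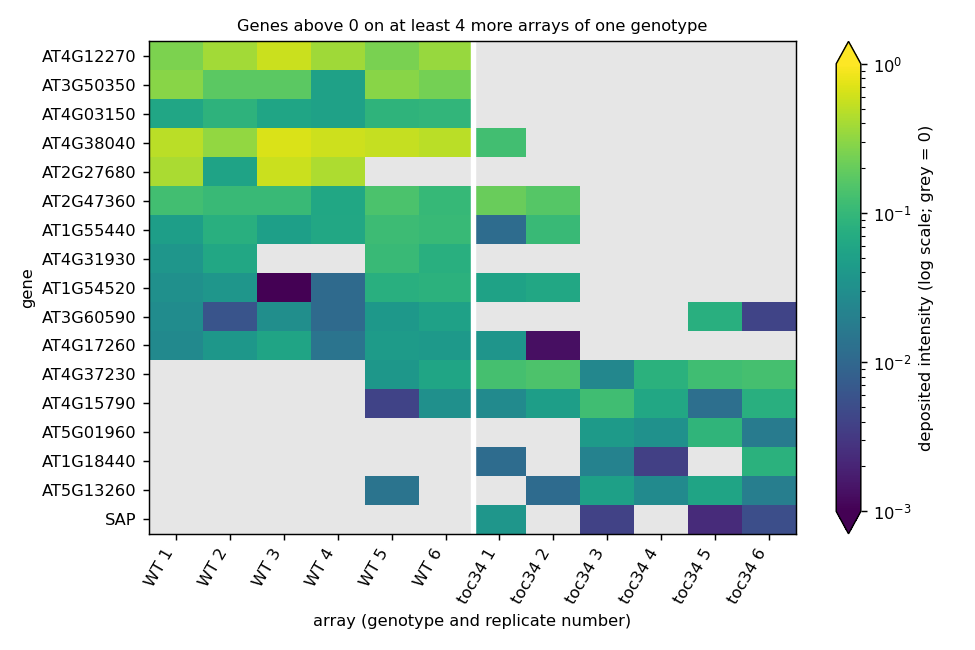
Deposited intensity (colour, log scale, grey for 0) of the 17 genes above 0 on at least 4 more arrays of one genotype, by array. The upper 11 genes were seen mainly in WT and the lower 6 mainly in toc34, and the 6 toc34 fields of AT4G12270, AT3G50350 and AT4G03150 are all grey.

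The genes seen mainly in toc34 had a median value above 0 of 0.0453 on toc34 arrays, and those seen mainly in WT one of 0.0571 on WT arrays. At least 4 more toc34 than WT arrays were above 0 for 6 genes (0.867% of the single-gene probes, against 0.785% of all probes). AT4G37230 had toc34 values of 0.131, 0.145, 0.0242, 0.0828, 0.119 and 0.130 and WT values of 0.0391 and 0.0582 on replicates 5 and 6, with 0 on the other 4. Its genotypes overlapped, because toc34 replicate 3 lay below both WT values above 0. AT4G15790 had toc34 values of 0.0275, 0.0481, 0.121, 0.0636, 0.0125 and 0.0786 and WT values of 0.00400 and 0.0322 on replicates 5 and 6. For both genes the WT values above 0 were on replicates 5 and 6 alone.

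The next 3 genes had no WT value above 0 and 4 toc34 values above 0. SAP, which is STERILE APETALA, a regulator of flower and ovule development, had toc34 values of 0.0381, 0.00389, 0.00233 and 0.00532 on replicates 1, 3, 5 and 6. Only the first of these was above the 10th percentile of its array. AT1G18440 had 0.0114, 0.0212, 0.00366 and 0.0829 on replicates 1, 3, 4 and 6, and AT5G01960 had 0.0429, 0.0328, 0.0919 and 0.0176 on replicates 3 to 6. AT5G13260 was above 0 on toc34 replicates 2 to 6, between 0.0112 and 0.0562, and on WT replicate 5 at 0.0144.

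The other genes of these classes were 14 seen mainly in WT and 10 seen mainly in toc34. The highest WT value of the 14 ran from 0.0366 to 0.283 and their highest toc34 value from 0.0130 to 0.836. The highest toc34 value of the 10 ran from 0.0214 to 0.723 and their highest WT value from 0.0165 to 0.247. These ranges overlapped, so a class says on how many arrays a gene was seen and not how bright it was. Class sizes moved with single arrays. The 25 genes seen mainly in WT became 41 without toc34 replicate 1, 40 without replicate 2, 41 without replicate 5 and 38 without replicate 6. The 16 seen mainly in toc34 became 9 without toc34 replicate 6. Without WT replicate 1 the classes were 19 and 22, and without WT replicate 2 they were 19 and 21, so which class was larger turned. Leaving out an array while still asking for 4 makes the rule stricter for that genotype.

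The 82 genes rare in both genotypes gave 82 values above 0 in WT and 129 in toc34, and 46 of them were above 0 on more toc34 than WT arrays, 19 on more WT arrays and 17 on equal numbers. Of all probes, 6.83%, 2.44% and 2.01% were of these 3 kinds, and of the single-gene probes 6.65%, 2.75% and 2.46%, so the shares were near the background. Counted over all 141 genes, 31 were above 0 on toc34 arrays only (4.48% of the single-gene probes, against 4.94% of all probes). On WT arrays only, 15 were above 0 (2.17% against 1.19%). On the 2747 other probes, 139 were above 0 on toc34 arrays only and 26 on WT arrays only. The values concerned were low, with medians of 0.0138 in WT and 0.0205 in toc34 among the 82 genes. How often a gene recurred between arrays is given with no test, over the 123 of the 141 genes above 0 on at least 1 array. These include the 25 genes seen mainly in WT, which the rule put above 0 on at least 4 WT arrays. They also include the 16 seen mainly in toc34. The gap between the genotypes in these shares therefore follows in part from the rule and the class sizes. For genes above 0 on at least 1 of 2 toc34 arrays that are neighbours in number, both were above 0 in 25.4% to 35.3% of cases, against 47.1% to 56.6% for neighbouring WT arrays. For arrays that were not neighbours in number the shares were 19.1% to 30% in toc34 and 30.6% to 51.7% in WT. Outside the single-gene set the shares were 44.2% to 61.9% for neighbouring toc34 arrays and 72.6% to 82.2% for neighbouring WT arrays. Those probes were above 0 on 1 to 11 arrays and were not chosen to be rare, so their level cannot be set against that of the rare genes.

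The 19 genes with a symbol of their own made up 13.5% of the 141 genes, and 13.6% of the other single-gene probes had a symbol. By role, several of the 19 were of the chloroplast. The share of chloroplast genes over all probes was not counted, so this is not a trait of the rare genes. CRR41, which is needed to assemble the chloroplast NADH dehydrogenase-like complex, was at 0 on all WT arrays and had 0.0271 and 0.00615 on toc34 replicates 2 and 5. NdhN, a subunit of that complex, had 0.0158, 0.0211 and 0.00623 on WT replicates 2, 3 and 6 and 0.0373 and 0.0138 on toc34 replicates 4 and 6. OTP85, an organelle RNA editing factor, was above 0 on WT replicate 1 alone, at 0.00304. NdhN was thus seen in both genotypes, CRR41 on toc34 arrays only and OTP85 on a WT array only.

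SPPA, a light-induced protease of the thylakoid, had 0.0205 on WT replicate 2 and 0.0458 on toc34 replicate 6. LrgB, a glycolate and glycerate transporter of the chloroplast envelope, had 0.00300 on WT replicate 6 alone. UPP, a uracil phosphoribosyltransferase that salvages pyrimidines, had 0.000343 and 0.00295 on WT replicates 2 and 3 and 0.00436 and 0.0544 on toc34 replicates 2 and 3. None of these genes was above 0 on more than 2 arrays of a genotype. SRX, the sulfiredoxin that repairs over-oxidised peroxiredoxin, was seen more often. It had 0.00927, 0.00790, 0.00781, 0.0449 and 0.0924 on WT replicates 1, 3, 4, 5 and 6, and 0.000784, 0.0130 and 0.0108 on toc34 replicates 1, 2 and 5.

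Among genes of the cell wall, GH9B16 was also measured by a second probe. GH9B16, of glycosyl hydrolase family 9, which holds the plant endoglucanases, had 0.00860, 0.0505 and 0.0209 on WT replicates 3, 5 and 6. In toc34 it had 0.244, 0.283, 0.00334, 0.0730 and 0.0488 on replicates 1, 2, 3, 5 and 6, so the genotypes overlapped. A probe shared by 3 genes of this family, GH9B16 among them, was above 0 on 3 WT arrays, at 0.00160, 0.0275 and 0.0237. On the toc34 arrays that shared probe had 0.590, 0.661, 0.518, 0.700, 0.252 and 0.211, all above every WT value. Which of the 3 genes gave this signal cannot be told from the shared probe. GH9B8, of the same family, had 0.00738, 0.0612, 0.0343 and 0.0184 on WT replicates 1 to 4 and 0.0175 on toc34 replicate 2. CKS, which activates the sugar KDO for a pectin of the wall, had 0.00358 on WT replicate 2 and 0.00537 on toc34 replicate 2.

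Further genes with a symbol were 5 that were rare in both genotypes and ATATH8. DME, the DEMETER DNA glycosylase that removes DNA methylation in the central cell of the ovule, had 0.00367 on WT replicate 2 and 0.0390 on toc34 replicate 5. DRT100, named for DNA damage repair and toleration, had 0.00200 and 0.0200 on toc34 replicates 2 and 6. GLX2-1, named as a glyoxalase II, had 0.0392, 0.0229 and 0.0578 on WT replicates 2, 5 and 6 and 0.0306 and 0.0605 on toc34 replicates 2 and 6. TRM31, named for a motif that recruits TON1, had 0.00506 on WT replicate 5 and 0.0202 and 0.0490 on toc34 replicates 2 and 3. ATSIK had 0.0117 on WT replicate 3 and 0.0496 and 0.0404 on toc34 replicates 1 and 6, and ATATH8 had 0.0191 to 0.0565 on all 6 WT arrays and 0.0254, 0.0642 and 0.0517 on toc34 replicates 2 to 4. ATATH8 was thus seen mainly in WT, yet its toc34 values above 0 lay within or above its WT range.

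None of the fixed gene lists could be described on these genes. The lists of chloroplast protein import and of markers of seed, root and of flower and pollen had 0 single-gene probes each. Of the word groups searched in gene names and synonyms, the oxidoreductase group found 1 of its 7 single-gene probes among the rare genes, NdhN, and the protease group 1 of 2, SPPA. The kinase group had 0 of 2 and the chloroplast group 0 of 4. The groups for pentatricopeptide proteins, F-box proteins, transcription regulators, disease resistance and transposable elements or pseudogenes had 0 single-gene probes. So did those for ribosomal proteins, unknown proteins, transporters and RNA binding. The search could only find words in names and synonyms, and 122 of the rare genes had no symbol. LrgB, described above as a transporter of the chloroplast envelope, was found by neither the chloroplast nor the transporter group. A count of 0 therefore cannot tell if genes of that kind were among the rare genes. By the chromosome in the locus name, the rare genes were 33 of 173 single-gene probes on chromosome 1, 22 of 124 on 2, 29 of 130 on 3, 23 of 120 on 4 and 34 of 143 on 5. These shares lay between 17.7% and 23.8%.

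The 10 genes with the highest values differed in pattern, and AT4G38040, AT4G12270 and AT2G27680, described above, were among them. APTX, an aprataxin-like gene whose relatives repair broken DNA ends, had 99.4 on WT replicate 1 and 0 on the other 11 arrays. That was the highest value of all probes on that array. Every other value of the 141 genes was below 1. AT4G20690 had 0.143, 0.0639, 0.0244, 0.0917 and 0.120 on WT replicates 1, 2, 3, 5 and 6 and 0.385 and 0.836 on toc34 replicates 1 and 2, with 0 on the other toc34 arrays. AT3G11150 was above 0 on all 6 toc34 arrays, at 0.384, 0.427, 0.581, 0.609, 0.0886 and 0.0583, and on WT replicates 2, 5 and 6 at 0.00134, 0.0380 and 0.0160. Its genotypes did not overlap, though replicates 5 and 6 lay close to WT.

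**Figure D4:**
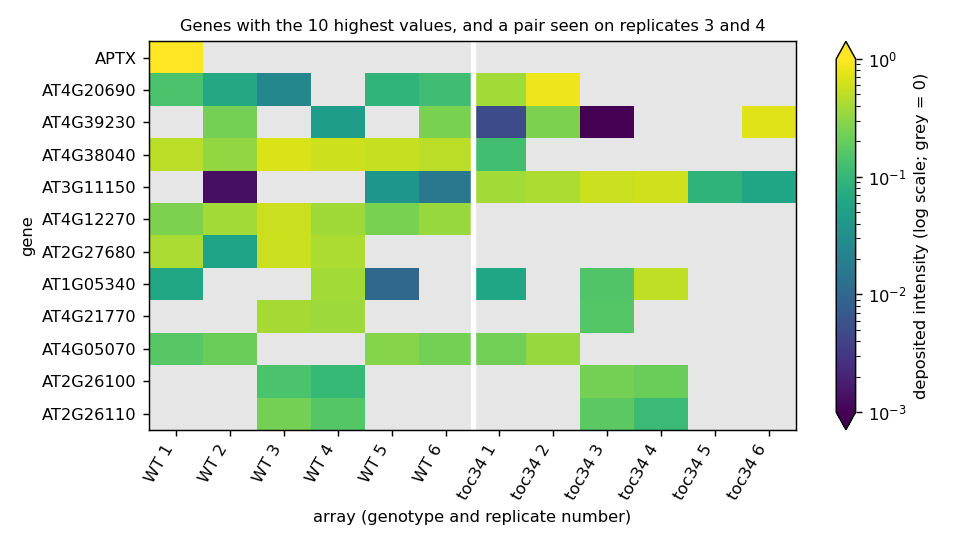
Deposited intensity (colour, log scale, grey for 0) by array for the genes with the 10 highest values among the 141, and for AT2G26100 and AT2G26110. The colour scale ends at 1, so the APTX value of 99.4 on WT replicate 1 is off the scale, and the last 2 genes are coloured on replicates 3 and 4 only.

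The next genes were picked for the replicate numbers on which they were above 0, so their pattern is a description only. AT2G26100 had 0.143 and 0.101 on WT replicates 3 and 4 and 0.234 and 0.209 on toc34 replicates 3 and 4. AT2G26110 had 0.237 and 0.161 on the same WT arrays and 0.177 and 0.112 on the same toc34 arrays. Both were at 0 on the other 8 arrays, and they were the only 2 of the 141 genes that neighbour each other in the RefSeq gene order. Their probes also lie near each other in number, at 2288 and 2276. What part gene order or probe number has in their pattern was not tested. AT4G21770 had 0.390 and 0.363 on WT replicates 3 and 4 and 0.162 on toc34 replicate 3. AT4G39230 followed even numbers in WT, at 0.234, 0.0464 and 0.247 on replicates 2, 4 and 6. In toc34 it had 0.00480, 0.256, 0.000502 and 0.723 on replicates 1, 2, 3 and 6. AT1G05340 was above 0 on replicates 1, 4 and 5 of WT, at 0.0632, 0.380 and 0.0100, and on replicates 1, 3 and 4 of toc34, at 0.0594, 0.152 and 0.520. AT4G05070 had 0.165, 0.212, 0.283 and 0.235 on WT replicates 1, 2, 5 and 6 and 0.230 and 0.342 on toc34 replicates 1 and 2.

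Whether a probe was above 0 went along with its number in the deposited table. Over the 998 probes above 0 on 1 to 11 arrays, the on-off patterns of probes with consecutive numbers correlated at a mean of 0.195 over 275 pairs. The mean was 0.168 at a difference of 2 and 0.123 at 3, and between -0.0147 and 0.0937 at differences of 4 to 40. Within 4 to 40 the highest means were 0.0937 at 12, 0.0912 at 24 and 0.0837 at 11, with a median of 0.0310. The mean thus did not fall steadily with the difference. For pairs that held at least 1 of the rare genes, it was 0.154 over 57 pairs at a difference of 1 and 0.146 over 69 pairs at 2, but 0.0678 over 65 pairs at 3, which was within the range at larger differences. At 4 to 40 it lay between -0.0824 and 0.103, and was highest at 12. The pairs at 12 include AT2G26100 with AT2G26110, whose shared pattern is part of that mean. These are descriptions over probes that share arrays. The sources used here do not say what the numbers stand for on the array, and the part of position in the zeros was not tested.

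**Figure D5:**
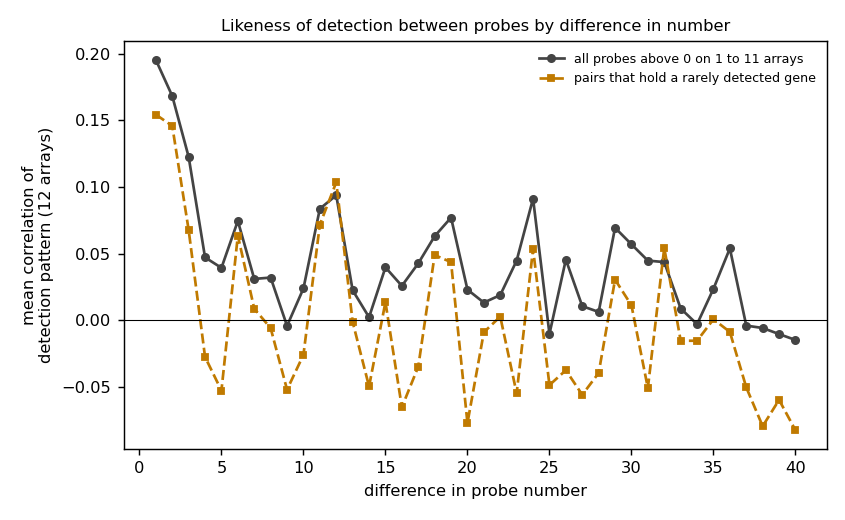
Mean correlation of the on-off pattern over 12 arrays between probes (vertical axis) by their difference in probe number (horizontal axis), for all probes above 0 on 1 to 11 arrays and for pairs with a rare gene. Both lines are highest at differences of 1 and 2.

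A bright probe was next in number to some of the rare genes. Of the 132 rare genes with a neighbour in number, 9 (6.82%) had a neighbour whose mean over all arrays was above 5, against 7 of 526 (1.33%) among the other single-gene probes. The median of the brighter neighbour was 0.227 and 0.204, close to each other. Of the 24 genes seen mainly in WT that had a neighbour, 5 (20.8%) were next to such a bright probe, and of 14 seen mainly in toc34, 0 were. The median of the brighter neighbour was 0.449 for the first class and 0.392 for the second, so by this measure the classes were close. The share of all probes next to such a bright probe was not counted. AT4G05070, at 0 on WT replicates 3 and 4 and toc34 replicates 3 to 6, was next to a probe at 27.5 ± 8.05 in WT and 5.0 ± 2.81 in toc34 (SD, n = 6 arrays each). AT4G03150, above 0 in WT only, was next to one at 12.8 ± 1.59 in WT and 6.25 ± 0.560 in toc34. AT4G31930, also at 0 on every toc34 array, was next to one at 23.2 ± 5.2 in WT and 7.80 ± 1.42 in toc34. The neighbours of AT4G03150 and AT4G31930 were higher in WT, where these genes were above 0, while AT4G05070 was also above 0 on toc34 replicates 1 and 2. The other 2 of the 5 genes, AT4G20690 and AT1G11820, were next to probes at 11.5 ± 3.59 and 10.5 ± 3.68 in WT and at 12.8 ± 4.18 and 10.03 ± 5.43 in toc34. Of the 9 genes in all, the remaining 4 were AT2G21530, AT4G14050, AT4G31210 and AT4G37420. The neighbour of AT4G14050, a gene at 0 on all 12 arrays, was at 13.9 ± 3.76 in WT and 21.8 ± 3.68 in toc34, and that of AT2G21530 at 38.0 ± 15.1 and 46.1 ± 13.7. For AT4G37420 the neighbour was at 21.3 ± 3.59 in WT and 18.0 ± 4.37 in toc34, and for AT4G31210 at 14.5 ± 3.43 and 16.1 ± 2.46. Some bright neighbours were thus higher in WT and others higher in toc34. The part of bright neighbours in these values was not tested.

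The 18 genes at 0 on all 12 arrays were AT2G47680, AT2G26340, AT4G14050, AT5G55220, AT1G29700, AT5G47030, AT2G11270, AT1G53050, AT4G35980, AT5G63290, AT3G58830, AT5G48440, AT1G68160, AT2G30100, AT2G34450, AT1G24530, AT3G20920 and AT1G12230. None had a symbol other than its locus name in RefSeq. AT1G24530 also stood on a probe shared by 3 genes, which was above 0 on every array, at 1.25 to 1.96 in WT and 0.633 to 1.28 in toc34. The shared probes of AT1G17850, AT1G05340, AT3G25680 and AT3G60590 were likewise above 0 on all 12 arrays. That signal may come from any of the genes on such a probe.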

How the data were processed

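The authors' deposited table holds 1 intensity per probe and array, on a linear scale from 0 to 100, judged from its values. How the authors subtracted background, scaled the arrays or labelled the RNA is not stated in what was available for this work, so the effect of those steps on the zeros was not tested. Values were used as deposited, with no normalization, logarithm or imputation. A probe counted as detected above 0, and a genotype needed 4 of 6 arrays. Detection was also counted above the 10th and 25th percentile of the values above 0 on each array.

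Genes came from the platform annotation of 2016, with symbols updated by gene identifier through RefSeq TAIR10.1. RefSeq coordinates were used only to order genes along the chromosomes. Named genes were those whose detection counts differed by 4 or more arrays, those at 0 on all 12, the 10 highest values, and up to 4 for each word group. Genes with a symbol, the genes picked for their replicate pattern and the comparisons by probe number were added after values were seen. The members, lists and rules were all chosen with earlier results of these data known.

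Detection of probes outside the rule was compared with an exact permutation test in scipy 1.17.1 under Python 3.11.15, tested on simulated data. After each genotype's mean was removed, WT and toc34 arrays of equal number correlated at 0.135 to 0.285 over 2337 probes, above 0.1 for every number. Replicate numbers were thus used as a block in a further check, while the main test was unpaired. Arrays of unlike number were not correlated, so these values cannot tell if the numbers pair the arrays. The labels are silent on it. Precision is limited by the number of arrays, by their unknown independence and by the unstated background and scaling steps.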

Additional observations from a re-analysis of the deposited data

Results flagged for a closer look

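In 76 groups of 6 arrays, those of the named genes with a value above 0 and of 4 array summaries, the array farthest from the others was set against the whole range, and groups above Dixon's critical ratio for 6 values are given here. A group with a single value above 0 has a ratio of 1.0 whatever its size, which held for 16 groups. Chance flags about 1 in 20 groups of unselected values, but these groups were selected for values of 0 or for a high value, so that rate does not hold here and the number of groups named says nothing by itself.

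The ratio was 1.0 for APTX in WT, where replicate 1 was at 99.4 and the other arrays at 0. It was also 1.0 for LrgB, OTP85, TRM31, ATSIK and AT5G13260 in WT, for AT4G21770, AT4G38040, SBPASE and GH9B8 in toc34, and for DME, SPPA and CKS in both genotypes.

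Among groups with more values above 0, toc34 ratios were 0.947 for AT3G60590, 0.900 for DRT100, 0.860 for SAP, 0.744 for AT1G18440, 0.964 for AT4G17260, 0.773 for CRR41 and 0.892 for AT1G55440. In toc34 the ratio was 0.646 for AT4G39230, highest on replicate 6, and 0.630 for NdhN. AT4G15790 had 0.876 in WT. UPP had 0.884 in WT and 0.920 in toc34, and AT1G05340 had 0.834 in WT and 0.707 in toc34, where replicate 4 was highest both times.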

How the results depend on the processing

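Detection above the 10th percentile of the array gave 214 genes under the rule in place of 141, 70 never detected in place of 18, 34 mainly in toc34 in place of 16, and 5 on all arrays of one genotype and none of the other in place of 3. Above the 25th percentile these were 331, 118 and 42, with 66 mainly in WT in place of 25. Of the 17 genes whose counts differed by 4 arrays, 9 kept such a difference above the 10th percentile (7 higher in WT) and 4 above the 25th (3 higher in WT), where AT3G60590 turned from 4 to -1. Asking for 3 or 5 arrays in place of 4 kept every class within 1.5 times its count. The excess of genes mainly in WT over mainly in toc34 (25 against 16) did not hold throughout. It was gone at 18 against 20 for 3 arrays, 34 against 34 above the 10th percentile and 18 against 32 with neighbouring numbers pooled. It was kept at 36 against 12 for 5 arrays and 66 against 42 above the 25th percentile. Counts were 19 against 22 without WT replicate 1 and 41 against 11 without toc34 replicate 1. Leaving out an array makes the rule stricter for its genotype, so the direction of such a change was fixed beforehand. With neighbouring numbers pooled, 43 genes were rare in both in place of 82, 32 were mainly in toc34 and 8 on all of one genotype and none of the other. Probes with several genes gave 0 of that last class. The 1877 probes with no gene listed, a larger set, gave 366, 61 at 0, 217 rare in both, 48 mainly in WT and 40 mainly in toc34. Leaving out 1 array gave 141 to 157 genes, 18 to 23 at 0, 80 to 86 rare in both, 19 to 41 mainly in WT, 9 to 22 mainly in toc34 and 3 to 4 on all of one and none of the other. The difference in detected probes outside the rule ran from -32.3 to -1.27 (exact permutation p from 0.320 to 0.965). With the replicate block it was -19.3 (exact sign-flip p = 0.250, smallest possible 0.0312), so the block changed no call.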
